A study of Mus musculus with 9 samples.

Results

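The genes described are the families known as interferon-induced genes, followed across kidney RNA of bile duct-ligated mice. They were chosen by symbol alone: the Ifi, Ifit and Ifitm genes, the interferon regulatory factors Irf1 to Irf9, the guanylate-binding proteins (Gbp), the oligoadenylate synthetases (Oas), the Isg, Mx and immunity-related GTPase genes, and Rsad2, Usp18, Bst2, Ddx60, Psmb8, Psmb9, Psmb10, Tap1 and Tap2. Of 22180 genes with a row of their own on the arrays, 72 were members. Membership rests on the symbol, and whether interferon induces each member was not tested. Another 9 rows held a name of these families together with a further symbol and were not fitted. Gbp2 and some others were therefore not tested here.

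Interferons are secreted proteins that cells release on sensing nucleic acids of viruses or of damaged cells. Type I interferons (alpha and beta) act through the receptor chains Ifnar1 and Ifnar2 on a complex that holds IRF9 and binds the interferon-stimulated response element (ISRE) of target genes. Interferon gamma, made mainly by T and NK cells, acts through Ifngr1 and Ifngr2 on genes with a gamma-activated site (GAS), and among its targets is Irf1. The products restrict viruses and intracellular pathogens or prepare antigens for display to T cells.

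The study measured kidney RNA on 9 whole-transcript arrays in 3 groups of 3 samples. The norUDCA-prefed CBDL group received norursodeoxycholic acid (norUDCA), a side chain-shortened relative of the bile acid ursodeoxycholic acid, for 5 days and then had the common bile duct tied off (common bile duct ligation, CBDL) for 3 weeks. The CBDL group had the ligation for 3 weeks without norUDCA, and the sham group had a sham operation 3 weeks before. The labels give no strain, sex or age and do not say whether norUDCA was fed on after the operation, and no norUDCA-fed sham group was among the samples. Values below are log2 signals as the authors normalized them, so a difference of 1 is a doubling, and values on single arrays are given in the order norUDCA_CBDL_172, norUDCA_CBDL_175 and norUDCA_CBDL_179, then CBDL_164, CBDL_165 and CBDL_170, then sham_158, sham_159 and sham_160. A member is said to have risen or fallen where limma, which estimates the spread of each gene with help from all genes, gave a Benjamini-Hochberg adjusted p under 0.05 over all 22180 genes. The labels do not say that replicates are separate animals, so the spread that the p-values rest on is that between these samples and may be technical, and an exact permutation test of 3 against 3 arrays cannot go below 0.1. In bulk tissue RNA, fewer cells of a type and less RNA per cell cannot be told apart.

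Array medians lay between 5.70 and 5.79, and correlations across genes within a group between 0.986 and 0.995. On the second principal component sham_159 (-34.5) and CBDL_165 (-22.9) stood apart from the other 7 arrays (3.42 to 12.03), so counts are also given without both. The label of kidney was borne out by 14 of 14 proximal tubule markers measured, whose mean lay at 11.6 to 11.8 on norUDCA-prefed CBDL arrays, 9.86 to 11.1 on CBDL arrays and 12.1 to 12.2 on sham arrays. The array gives no detection call, and 23 of 72 members lay under 5.20 in all 3 groups, the level below which the dimmest 33.3% of genes lie and where signal above background is not shown.

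The upstream sequences of 6 members show the elements these families are known for. The 6 genes behaved differently in the kidney. Ifi205 and Ifi207 are the p200 genes called in both comparisons that are not dim in all groups. Gbp7 and Irf1 rose after ligation, Isg15 did not pass the test, and Rsad2 fell. Each is the 250 bases before the gene's start in the RefSeq table of build GRCm38.p6, read 5′ to 3′ on the gene's strand. Irf1 has 2 promoters in that table, and the one with the most matches is shown. Capitals mark the ISRE core (GAAA, any 2 bases, GAAA) or its reverse complement, and the GAS form TTCNNNGAA.
Ifi205, chr1:174031756-174032005, minus strand: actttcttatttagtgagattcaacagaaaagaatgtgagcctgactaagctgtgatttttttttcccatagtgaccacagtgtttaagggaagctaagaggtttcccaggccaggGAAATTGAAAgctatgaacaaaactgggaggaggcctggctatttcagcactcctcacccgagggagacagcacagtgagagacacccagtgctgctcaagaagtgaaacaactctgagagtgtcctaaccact
Ifi207, chr1:173741810-173742059, minus strand: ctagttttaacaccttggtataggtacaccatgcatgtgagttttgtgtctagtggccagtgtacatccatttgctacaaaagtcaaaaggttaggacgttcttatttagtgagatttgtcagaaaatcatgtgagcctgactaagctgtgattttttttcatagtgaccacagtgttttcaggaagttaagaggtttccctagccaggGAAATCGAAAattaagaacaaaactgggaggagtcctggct
Gbp7, chr3:142530086-142530335, plus strand: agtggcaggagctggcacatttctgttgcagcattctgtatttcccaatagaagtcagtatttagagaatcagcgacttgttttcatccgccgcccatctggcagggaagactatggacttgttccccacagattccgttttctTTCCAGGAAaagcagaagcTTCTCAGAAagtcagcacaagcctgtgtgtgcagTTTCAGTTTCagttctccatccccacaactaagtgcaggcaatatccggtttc
Irf1, chr11:53769764-53770013, plus strand: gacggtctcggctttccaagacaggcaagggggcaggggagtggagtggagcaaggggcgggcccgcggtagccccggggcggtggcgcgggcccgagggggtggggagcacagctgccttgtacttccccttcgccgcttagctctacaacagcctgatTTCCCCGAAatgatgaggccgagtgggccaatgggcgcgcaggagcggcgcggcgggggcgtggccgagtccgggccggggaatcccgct
Isg15, chr4:156200819-156201068, minus strand: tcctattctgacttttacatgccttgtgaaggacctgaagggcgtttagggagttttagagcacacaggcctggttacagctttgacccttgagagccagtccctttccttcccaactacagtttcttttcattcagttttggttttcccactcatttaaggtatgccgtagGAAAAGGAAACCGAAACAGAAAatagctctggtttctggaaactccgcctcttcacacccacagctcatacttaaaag
Rsad2, chr12:26456453-26456702, minus strand: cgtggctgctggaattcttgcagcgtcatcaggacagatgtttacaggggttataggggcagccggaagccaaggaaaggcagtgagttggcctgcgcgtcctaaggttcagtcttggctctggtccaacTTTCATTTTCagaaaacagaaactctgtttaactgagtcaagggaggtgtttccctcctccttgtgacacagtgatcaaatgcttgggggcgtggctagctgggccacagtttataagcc

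The table held a promoter for 53 of the 72 members. Searched on both strands over 250 bases before to 50 after the start, with overlapping matches counted separately, the ISRE core was found in 27 of 53 members (50.9%), against 3.99% of 27025 genes and 3.44% of 32851 promoters. The GAS form was found in 15 of 53 members (28.3%), against 9.55% of genes and 8.3% of promoters. In the sequences above Isg15 carries 3 overlapping ISRE cores, Gbp7 carries 1 ISRE core and 2 GAS forms, and Irf1 carries a GAS form alone. The printed stretches of Ifi205 and Ifi207 share an identical run of 31 bases. A match is a description of letters and not a measured binding site.

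After 3 weeks of ligation, 18 of 72 members rose in CBDL against sham and 1 fell. The share that rose was 25%, while 10.3% of all genes rose, and the share that fell was 1.39%, while 11.5% of all genes fell. The increases lay in the p200 family (Ifi202b, Ifi204, Ifi205, Ifi207), the guanylate-binding proteins (Gbp3, Gbp7, Gbp8, Gbp9), the regulators Irf1 and Irf9, the immunoproteasome subunits Psmb8 and Psmb10, the membrane proteins Ifitm3 and Ifitm10, the synthetase-like Oasl1 and Oasl2, and Ifi30 and Isg20. The member that fell was Rsad2. The 53 members that were not called included Isg15, Usp18, Mx1, Mx2 and all 6 Ifit genes. The difference was positive for 50 of 72 members (69.4%, against 41.7% of all genes), and its median was 0.27 over the members and -0.06 over all genes.

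In norUDCA-prefed CBDL against CBDL, 4 members fell, all of the p200 family, and 0 rose. The share that fell was 5.56%, against 3.2% of all genes, and 3.61% of all genes rose. An unadjusted p under 0.05 was reached by 22 members (30.6%) and by 19.3% of all genes. The difference was positive for 13 of 72 members (18.1%, against 49.2% of all genes) and negative for 59, with a median of -0.25, against -0.00336 over all genes. In norUDCA-prefed CBDL against sham, 1 member rose (1.39%, against 1.82% of all genes) and 0 fell (1.37% of all genes), and 10 had an unadjusted p under 0.05 (13.9%, against 16.3% of all genes). The difference was positive for 39 of 72 members there (54.2%, against 39.9% of all genes). The comparisons share arrays: a high value in CBDL enters both CBDL against sham and norUDCA-prefed CBDL against CBDL.

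**Figure D1:**
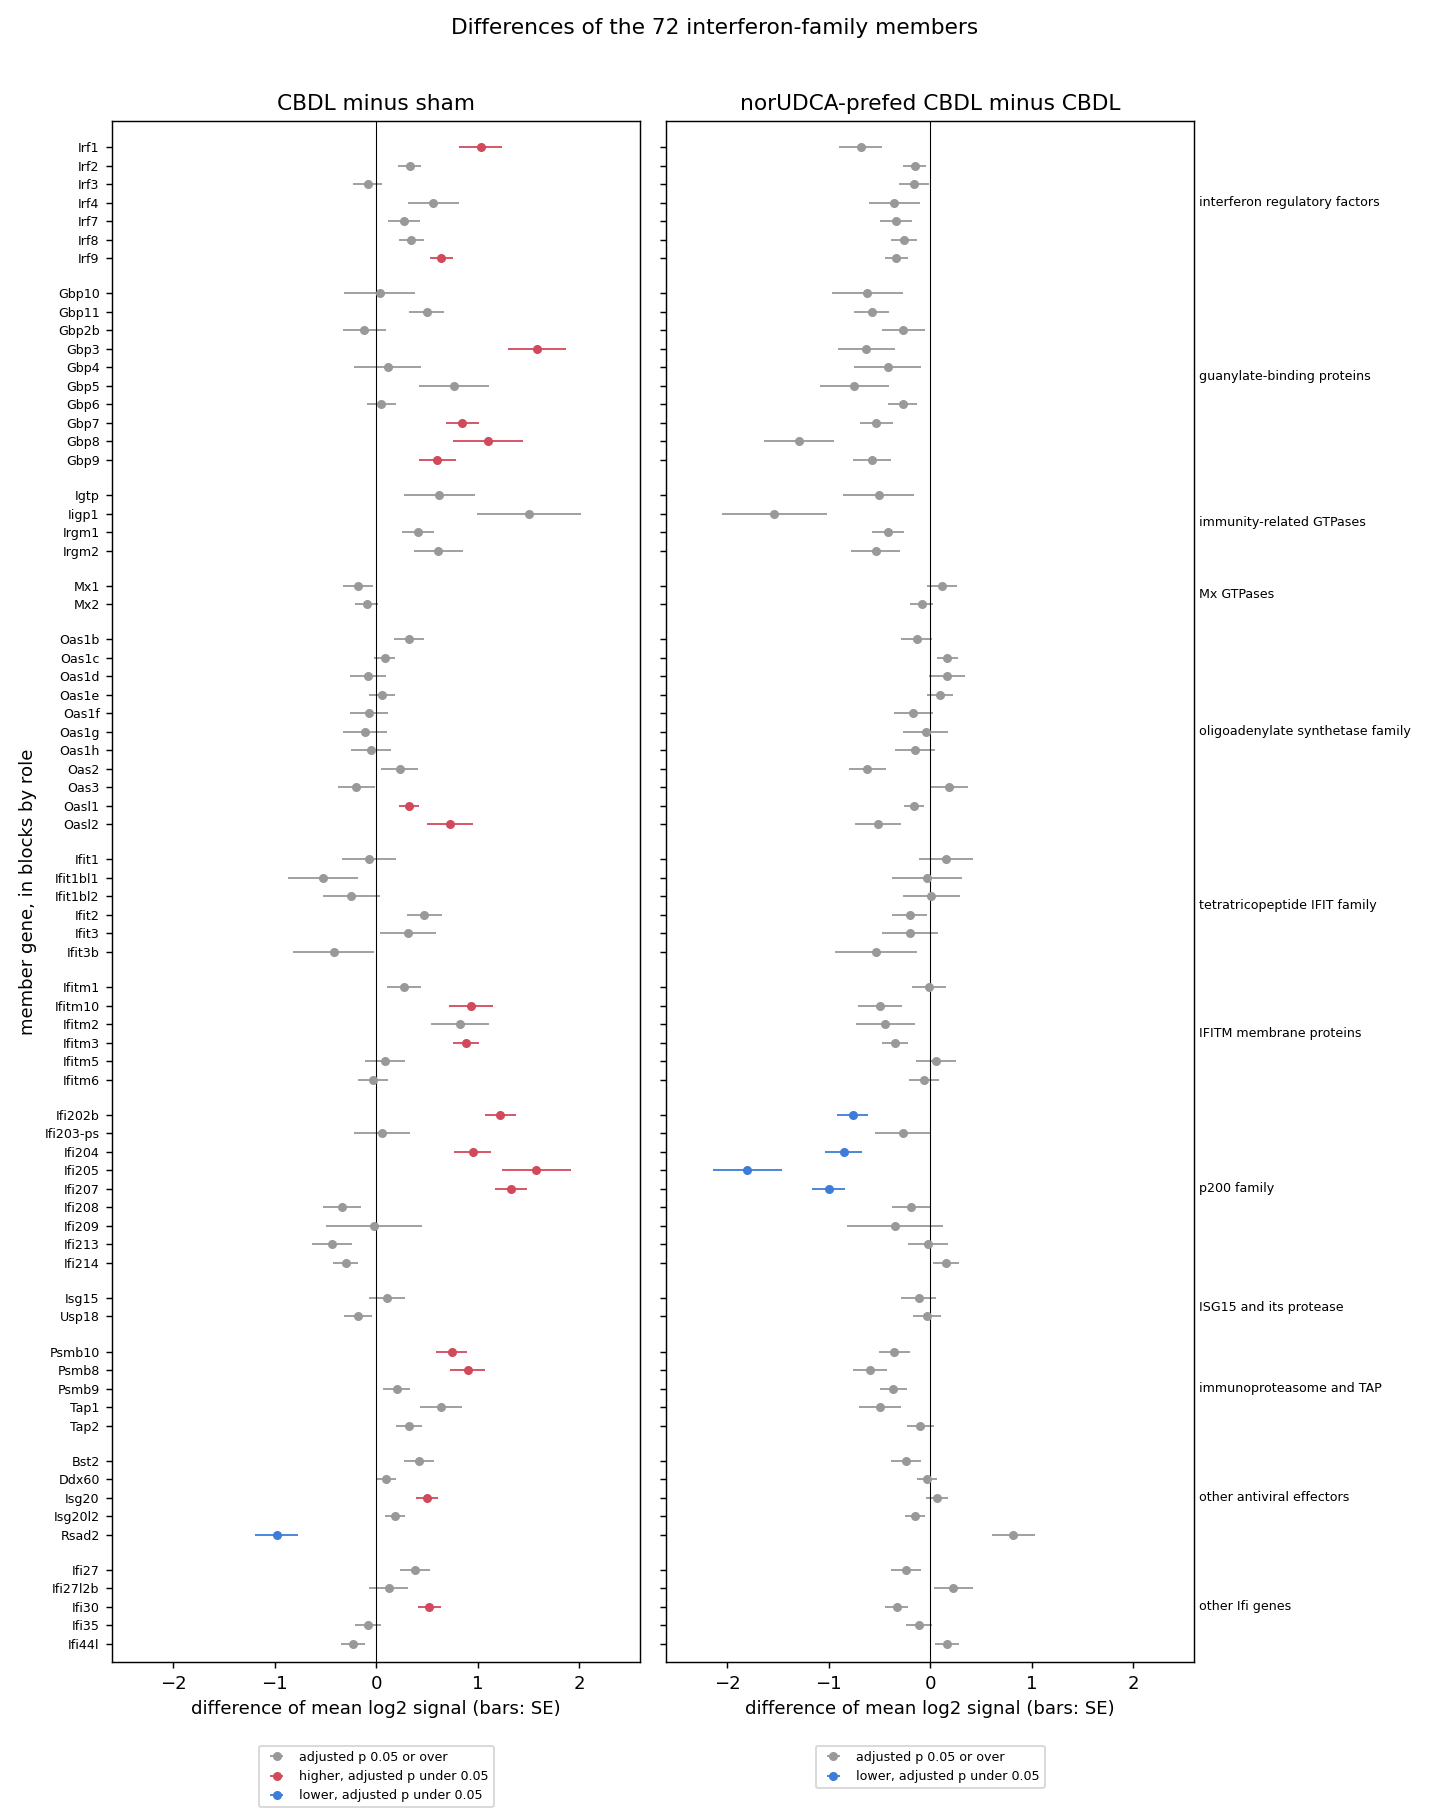
Difference of mean log2 signal for each of the 72 members, CBDL minus sham on the left and norUDCA-prefed CBDL minus CBDL on the right, with standard errors as bars and members in blocks by role. Red points are the 18 members that rose in CBDL and blue points the members that fell, Rsad2 on the left and 4 p200 genes on the right.

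By plain separation of the arrays, 24 members lay higher on every CBDL array than on any sham array (33.3%, against 15.6% of all genes) and 2 lay lower (2.78%, against 20% of all genes). Between norUDCA-prefed CBDL and CBDL, 24 members lay lower on every norUDCA-prefed array (33.3%, against 12.6% of all genes) and 1, Rsad2, lay higher (1.39%, against 11.6%). Between norUDCA-prefed CBDL and sham, 13 lay higher without overlap (18.1%, against 8.96% of all genes) and 3 lower (4.17%, against 13.5%). Without sham_159 and CBDL_165, 27 members rose in CBDL against sham, 16 of the 18 among them. In norUDCA-prefed CBDL against CBDL 7 fell in that setting, of which 2, Ifi205 and Ifi207, were also called with all arrays. Shares of all genes called without both arrays are not given here, so these counts are not read as particular to the members.

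The p200 family of chromosome 1, which includes sensors of DNA in mouse myeloid cells, held the only members called in both of these comparisons. Of its 9 measured genes 4 rose in CBDL against sham and the same 4 fell in norUDCA-prefed CBDL against CBDL. Ifi205 was at 5.21, 5.71 and 5.57 in norUDCA-prefed CBDL, 7.07, 8.23 and 6.59 in CBDL, and 5.74, 5.87 and 5.56 in sham. All 3 CBDL arrays lay above the other 6, and the norUDCA-prefed and sham arrays overlapped. It rose by 1.57 in CBDL against sham (SE 0.34, adjusted p = 0.00829) and fell by 1.80 in norUDCA-prefed CBDL against CBDL (SE 0.34, adjusted p = 0.016).

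Ifi207 was at 4.81, 5.18 and 5.31 in norUDCA-prefed CBDL, 6.16, 6.31 and 5.84 in CBDL, and 4.88, 4.65 and 4.81 in sham. Here too every CBDL array exceeded all others and the remaining groups overlapped. The means of 5.10 in norUDCA-prefed CBDL and 4.78 in sham lay under the dim level, so the size of the differences is uncertain. The increase in CBDL was 1.32 (SE 0.16, adjusted p = 0.000329), and the difference of norUDCA-prefed CBDL to CBDL was -1.0004 (SE 0.16, adjusted p = 0.01). Its call in the second comparison was kept without each single array in turn, with a highest adjusted p of 0.0459.

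Ifi202b was at 4.06, 4.10 and 4.07 in norUDCA-prefed CBDL, 5.18, 4.78 and 4.55 in CBDL, and 3.55, 3.78 and 3.53 in sham. The 3 groups did not overlap, and the norUDCA-prefed arrays lay between the others. The differences were 1.22 in CBDL against sham (SE 0.15, adjusted p = 0.000405), -0.76 in norUDCA-prefed CBDL against CBDL (SE 0.15, adjusted p = 0.019) and 0.46 in norUDCA-prefed CBDL against sham (adjusted p = 0.163). Ifi204, which encodes a DNA-binding nuclear protein, was at 2.71, 3.30 and 3.02 in norUDCA-prefed CBDL, 3.98, 4.08 and 3.53 in CBDL, and 2.80, 3.07 and 2.88 in sham. It rose by 0.95 in CBDL (SE 0.18, adjusted p = 0.00422) and fell by 0.85 in norUDCA-prefed CBDL against CBDL (SE 0.18, adjusted p = 0.0235). Both genes lie under the dim level in all groups, so the size of these differences is uncertain, and neither was tested where dim genes were left out.

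The other p200 members, Ifi203-ps, Ifi208, Ifi209, Ifi213 and Ifi214, lay under the dim level in all groups and differed by -0.44 to 0.06 between CBDL and sham, with 0 called. A row that Ifi203-ps shares with Ifi203, not fitted, had means of 6.07 in norUDCA-prefed CBDL, 6.38 in CBDL and 6.43 in sham. Genes of this family are close in sequence, and whether a probe set also reads a relative was not tested. Calls of Ifi202b, Ifi204 and Ifi205 in norUDCA-prefed CBDL against CBDL ended when 1 array was left out. Ifi202b ended without CBDL_164, CBDL_165 or any norUDCA-prefed array (highest adjusted p 0.0692). Ifi204 ended without CBDL_164, CBDL_165, norUDCA_CBDL_172 or norUDCA_CBDL_179 (highest 0.0909), and Ifi205 without CBDL_164 or any norUDCA-prefed array (highest 0.0633).

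**Figure D2:**
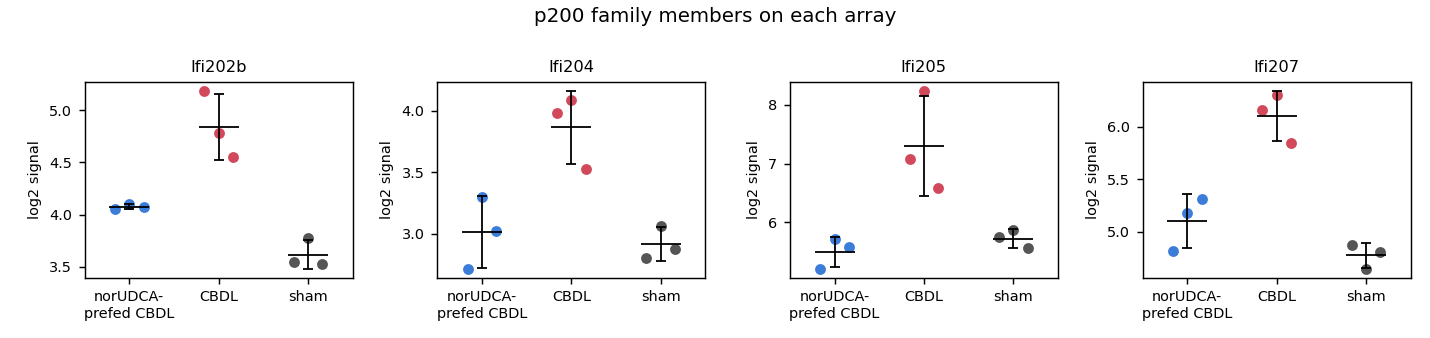
Log2 signal of the 4 p200 genes that were called, with 1 point per array, the group mean as a line and the SD as bars (n = 3). In each panel the 3 CBDL points lie above all others, for Ifi205 between 6.59 and 8.23, while norUDCA-prefed CBDL and sham overlap except for Ifi202b.

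Markers of macrophages and neutrophils also differed between the groups. All 14 measured macrophage markers rose in CBDL against sham, and 11 of 14 fell in norUDCA-prefed CBDL against CBDL. Their mean was 7.91 to 7.99 on norUDCA-prefed CBDL arrays, 8.51 to 9.29 on CBDL arrays and 6.84 to 7.18 on sham arrays, and it peaked at CBDL_165. Of 8 neutrophil markers, 5 of them dim in all groups, 4 rose and 0 fell in CBDL against sham, 7 had a negative difference in norUDCA-prefed CBDL against CBDL with 0 called, and 7 peaked on CBDL_165 among the CBDL arrays. Their mean was 4.98 to 5.15 on norUDCA-prefed CBDL arrays, 5.10 to 5.69 on CBDL arrays and 4.80 to 4.98 on sham arrays. The p200 mean, over 9 genes of which 7 are dim, was 3.45 to 3.78 in norUDCA-prefed CBDL, 4.02 to 4.44 in CBDL and 3.58 to 3.91 in sham. In norUDCA-prefed CBDL against sham, 10 of the 14 macrophage markers rose, against 1.82% of all genes, with a median difference of 1.06. Of the 9 p200 genes 0 rose there, with a median difference of -0.21. Among the CBDL arrays Ifi205 peaked on CBDL_165, as did 41% of all genes, and Ifi202b on CBDL_164. The part of macrophages and neutrophils in the p200 values was not tested.

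The guanylate-binding proteins are large GTPases, induced chiefly by interferon gamma, that attack the membranes around intracellular pathogens. Of 10 measured genes 4 rose in CBDL against sham, 9 had a positive difference, and all 10 had a negative difference in norUDCA-prefed CBDL against CBDL, where 0 passed and 4 had an unadjusted p under 0.05. Gbp3 was at 6.74, 6.94 and 6.95 in norUDCA-prefed CBDL, 7.92, 6.89 and 7.70 in CBDL, and 6.30, 5.38 and 6.08 in sham. The CBDL arrays lay above the sham arrays, and CBDL_165 lay within the norUDCA-prefed range. Its difference of 1.58 was the largest of the 72 members in CBDL against sham (SE 0.28, adjusted p = 0.00301), and it differed by -0.63 in norUDCA-prefed CBDL against CBDL (adjusted p = 0.266) and by 0.96 in norUDCA-prefed CBDL against sham (adjusted p = 0.12).

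Gbp7, whose promoter holds both elements, was at 8.41, 8.43 and 8.42 in norUDCA-prefed CBDL, 9.18, 8.56 and 9.10 in CBDL, and 8.14, 8.26 and 7.91 in sham. The 3 groups did not overlap, with norUDCA-prefed CBDL between the others. It rose by 0.85 in CBDL (SE 0.16, adjusted p = 0.0044) and differed by -0.53 in norUDCA-prefed CBDL against CBDL (SE 0.16, adjusted p = 0.0894).

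Gbp8 was at 5.15, 4.60 and 4.64 in norUDCA-prefed CBDL, 7.01, 5.69 and 5.56 in CBDL, and 5.15, 4.64 and 5.15 in sham. CBDL_164 stood far above the other CBDL arrays, and the norUDCA-prefed and sham arrays overlapped at the dim level. The differences were 1.10 in CBDL against sham (SE 0.35, adjusted p = 0.0466) and -1.29 in norUDCA-prefed CBDL against CBDL (SE 0.35, adjusted p = 0.0562). Gbp9 was at 7.26, 7.32 and 6.94 in norUDCA-prefed CBDL, 8.11, 7.51 and 7.64 in CBDL, and 7.09, 7.42 and 6.93 in sham, a rise of 0.60 in CBDL (SE 0.19, adjusted p = 0.0436). Without CBDL_164 the Gbp8 differences were 0.64 and -0.83. The calls of Gbp8 and Gbp9 ended without any 1 of 7 and of 6 arrays, with highest adjusted p of 0.149 and 0.14.

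Gbp2b, Gbp4, Gbp5, Gbp6, Gbp10 and Gbp11 did not pass, with differences in CBDL against sham between -0.12 for Gbp2b and 0.76 for Gbp5. The Gbp2b row is dim in all groups. A brighter row shared by Gbp2 and Gbp2b, not fitted, had means of 7.58 in norUDCA-prefed CBDL, 8.83 in CBDL and 7.08 in sham. Gbp5, which helps assemble the NLRP3 inflammasome, was at 6.20, 4.66 and 5.56 in CBDL, so that the CBDL_165 array lay within the sham range of 4.58 to 4.84. Chromosome 3 holds 4 of the measured Gbp genes and chromosome 5 the other 6 in the RefSeq gene table. Gbp3 and Gbp7 lie on chromosome 3, and Gbp8 and Gbp9 on chromosome 5.

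The immunity-related GTPases (IRG) are a mouse family that disrupts or regulates the vacuoles of intracellular pathogens. All 4 measured members were higher on average in CBDL than in sham, and 0 passed limma's test, 3 with an unadjusted p under 0.05. Iigp1 was at 6.68, 6.75 and 6.43 in norUDCA-prefed CBDL, 9.66, 7.05 and 7.75 in CBDL, and 6.603, 6.84 and 6.50 in sham. The CBDL arrays lay above all others and differed widely among themselves, and the norUDCA-prefed and sham arrays overlapped. Its difference was 1.51 in CBDL against sham (SE 0.51, adjusted p = 0.064) and -1.53 in norUDCA-prefed CBDL against CBDL (SE 0.51, adjusted p = 0.119). Without CBDL_164 the Iigp1 differences were 0.75 (adjusted p = 0.041) and -0.78 (adjusted p = 0.0957), and without CBDL_165 the difference of CBDL to sham was 2.06 (adjusted p = 0.0129). Igtp, Irgm1 and Irgm2 differed by 0.62, 0.41 and 0.61 in CBDL against sham (adjusted p between 0.0998 and 0.252), each with CBDL_165 within the sham range or below it.

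**Figure D3:**
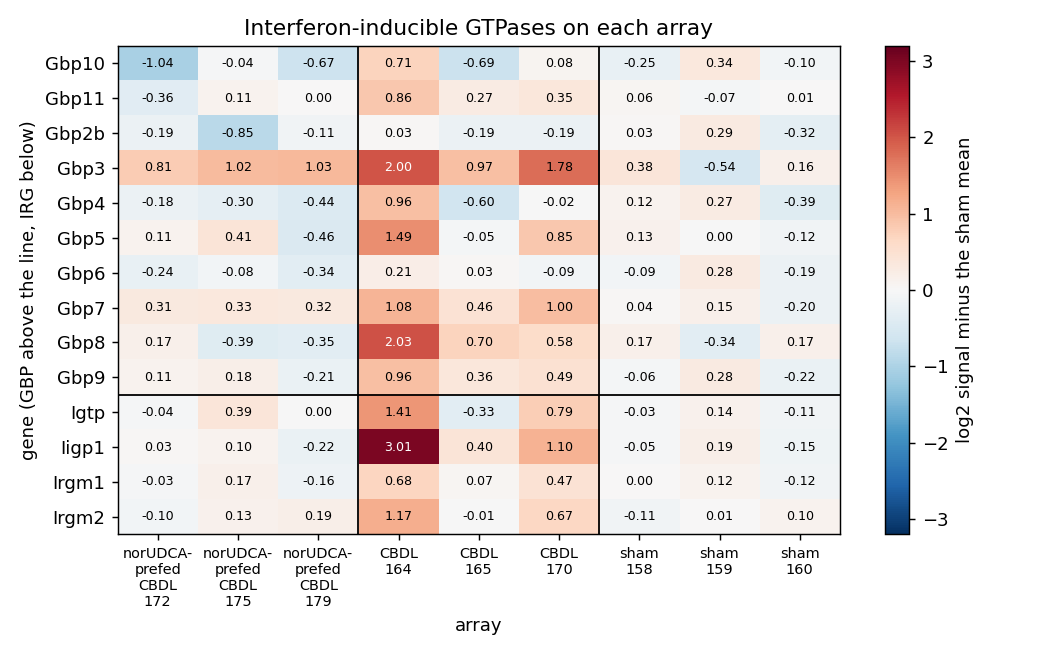
Log2 signal minus the sham mean for the 10 guanylate-binding proteins and 4 immunity-related GTPases on each array, with red above and blue below the sham mean. The column of CBDL_164 holds the highest CBDL value of all 14 genes, from 0.03 for Gbp2b to 3.01 for Iigp1, and the column of CBDL_165 runs from -0.69 for Gbp10 to 0.97 for Gbp3.

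All 10 Gbp and all 4 IRG genes had their highest CBDL value on CBDL_164. Over the 72 members CBDL_164 was the highest of the 9 arrays for 29 (40.3%), against 7.69% of all genes, and the highest of the CBDL arrays for 38 (52.8%), against 28.9% of all genes. The Gbp mean was 6.41 on CBDL_164, 5.50 on CBDL_165 and 5.86 on CBDL_170, while sham arrays spanned 5.26 to 5.45. Among the CBDL arrays 5 of 9 p200 genes were highest on CBDL_165, as were 41% of all genes, and 3, Ifi202b among them, on CBDL_164.

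The mean of T and NK cell markers had the order of the Gbp and IRG means among the CBDL arrays. Single genes did not all share that order, as Gbp8 was at 5.69 on CBDL_165 and 5.56 on CBDL_170. All 12 T and NK markers measured peaked on CBDL_164. So did 9 of 11 markers of the thick limb, distal tubule and collecting duct, with means of 9.70 on CBDL_164, 9.05 on CBDL_165 and 9.48 on CBDL_170. The T and NK mean was 5.06 to 5.27 on norUDCA-prefed CBDL arrays, then 5.61 on CBDL_164, 4.82 on CBDL_165 and 5.23 on CBDL_170, and 5.29 to 5.40 on sham arrays. By limma 0 of the 12 passed in CBDL against sham, where 10 had a negative difference and 2 an unadjusted p under 0.05, and 4 lay under the dim level in all groups. Cd3e, a chain of the T cell receptor complex, was at 6.77, 5.19 and 6.33 in CBDL against 6.24, 6.21 and 5.99 in sham. The gene of interferon gamma itself, Ifng, is dim in all groups. It was at 4.47 on CBDL_164, 4.44 on CBDL_165 and 4.59 on CBDL_170, below each sham array (4.67 to 5.34). Of 6 MHC class II genes, 5 peaked on CBDL_164 too, with means of 8.92 there, 7.92 on CBDL_165 and 8.66 on CBDL_170. The part of any of these cells in the differences of Gbp and IRG genes was not tested. Without CBDL_165, 8 further members rose in CBDL against sham, Gbp5, Igtp, Iigp1, Irgm1 and Irgm2 among them, and none of the 18 was lost. The share of all genes that rose in that setting is not given here.

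**Figure D4:**
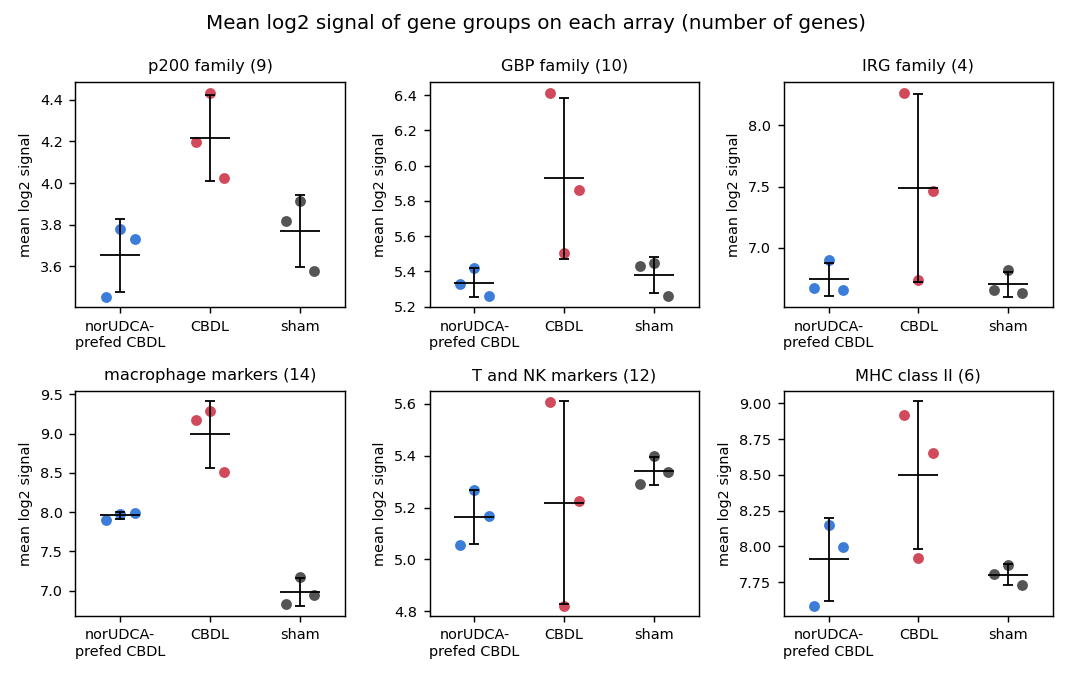
Mean log2 signal of 6 gene groups, with 1 point per array in the order of their numbers, the group mean as a line and the SD as bars (n = 3). The Gbp, IRG, T and NK and MHC class II means are highest on CBDL_164, the first CBDL point, and the p200 and macrophage means on CBDL_165, the second.

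Among the regulators, 2 of 7 interferon regulatory factors rose in CBDL against sham, and all 7 had a negative difference in norUDCA-prefed CBDL against CBDL, with 0 called and 2 at an unadjusted p under 0.05. Irf1, a transcription factor that interferon gamma induces, was at 7.17, 7.002 and 7.19 in norUDCA-prefed CBDL, 8.38, 7.53 and 7.50 in CBDL, and 6.80, 6.90 and 6.62 in sham. The groups did not overlap, norUDCA-prefed CBDL lay between the others, and CBDL_164 was highest. The increase in CBDL was 1.03 (SE 0.21, adjusted p = 0.00622), and norUDCA-prefed CBDL against CBDL differed by -0.69 (SE 0.21, adjusted p = 0.0903), or -0.40 without CBDL_164.

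Irf9, a DNA-binding part of the complex that type I interferons activate, was at 7.81, 7.84 and 7.98 in norUDCA-prefed CBDL, 8.28, 8.14 and 8.22 in CBDL, and 7.75, 7.38 and 7.58 in sham, again with no overlap between any pair of groups. It rose by 0.64 in CBDL (SE 0.11, adjusted p = 0.00273) and differed by -0.33 in norUDCA-prefed CBDL against CBDL (adjusted p = 0.123). Irf7, the amplifier of type I interferon production, was at 6.995, 6.69 and 6.995 in norUDCA-prefed CBDL, 7.31, 6.995 and 7.39 in CBDL, and 6.84, 7.25 and 6.77 in sham, so CBDL and sham overlapped (difference 0.27, adjusted p = 0.271). Irf2, Irf3, Irf4 and Irf8 did not pass, with differences between -0.08 and 0.56. A second, dimmer row of Irf8 differed by -0.01, against 0.35 in the row used.

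The immunoproteasome replaces catalytic subunits of the proteasome to cut peptides for MHC class I, and the TAP transporter carries them into the endoplasmic reticulum. All 5 measured members were higher on average in CBDL than in sham and 2 passed. Psmb8 was at 7.33, 7.35 and 7.53 in norUDCA-prefed CBDL, 8.32, 7.80 and 7.88 in CBDL, and 6.96, 7.41 and 6.92 in sham. CBDL lay above both other groups, which overlapped through sham_159. It rose by 0.90 in CBDL (SE 0.17, adjusted p = 0.00415) and differed by -0.59 in norUDCA-prefed CBDL against CBDL (SE 0.17, adjusted p = 0.0726).

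Psmb10 was at 7.64, 7.80 and 7.80 in norUDCA-prefed CBDL, 8.40, 7.86 and 8.03 in CBDL, and 7.34, 7.57 and 7.15 in sham, with 3 separate groups and a rise of 0.74 in CBDL (SE 0.15, adjusted p = 0.00685). The remaining inducible subunit, Psmb9, was at 6.11, 6.21 and 5.80 in norUDCA-prefed CBDL, 6.61, 6.34 and 6.26 in CBDL, and 6.13, 6.26 and 6.21 in sham, a difference of 0.20 in CBDL against sham (adjusted p = 0.331). CBDL and sham overlapped for this gene through CBDL_170.

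Tap1 was at 7.69, 7.71 and 7.71 in norUDCA-prefed CBDL, 8.70, 7.75 and 8.14 in CBDL, and 7.65, 7.69 and 7.33 in sham. CBDL lay above the other groups without overlap, by a narrow margin on CBDL_165, and the difference to sham of 0.64 narrowly missed the threshold (SE 0.21, adjusted p = 0.052) and was 0.39 without CBDL_164 (adjusted p = 0.125). Tap2 was at 7.28, 7.28 and 7.36 in norUDCA-prefed CBDL, 7.45, 7.24 and 7.51 in CBDL, and 6.81, 7.24 and 7.17 in sham (difference of CBDL to sham 0.32, adjusted p = 0.111). Of 10 further genes of MHC class I assembly 3 rose in CBDL against sham and 1 fell. Those that rose were the class I heavy chain gene H2-K1 at 0.84, its transactivator Nlrc5 at 0.76 and the proteasome activator Psme1 at 0.37 (adjusted p between 0.0019 and 0.0312). The gene that fell was H2-T23, which encodes a nonclassical class I chain, at -0.69 (adjusted p = 0.0325), and B2m, the light chain of class I, differed by 0.24 (adjusted p = 0.117).

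Among the antiviral effectors, Ifitm3, which blocks fusion of viruses with endosomes, was at 9.84, 9.96 and 9.85 in norUDCA-prefed CBDL, 10.38, 10.08 and 10.24 in CBDL, and 9.53, 9.41 and 9.12 in sham. The 3 groups were separate, with norUDCA-prefed CBDL in between. It rose by 0.88 in CBDL (SE 0.13, adjusted p = 0.000924), differed by -0.35 in norUDCA-prefed CBDL against CBDL (adjusted p = 0.155) and by 0.53 in norUDCA-prefed CBDL against sham (SE 0.13, adjusted p = 0.058).

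Ifitm10 was at 5.85, 5.85 and 5.79 in norUDCA-prefed CBDL, 6.13, 6.85 and 6.01 in CBDL, and 5.07, 5.45 and 5.65 in sham, in 3 separate groups, and rose by 0.94 in CBDL (SE 0.22, adjusted p = 0.0117). Ifitm2 differed by 0.82 in CBDL against sham (adjusted p = 0.0702), with sham arrays from 6.06 to 7.37, and Ifitm1, Ifitm5 and Ifitm6 differed by -0.03 to 0.27. All 6 measured Ifitm genes lie on chromosome 7.

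Isg20, an exonuclease that degrades viral RNA, was the member that rose in norUDCA-prefed CBDL against sham. It was at 7.76, 7.67 and 7.46 in norUDCA-prefed CBDL, 7.58, 7.63 and 7.46 in CBDL, and 6.95, 7.11 and 7.11 in sham. Both ligated groups lay above sham and overlapped each other. The difference was 0.57 in norUDCA-prefed CBDL against sham (SE 0.11, adjusted p = 0.0243), 0.50 in CBDL against sham (SE 0.11, adjusted p = 0.00876) and 0.07 in norUDCA-prefed CBDL against CBDL (adjusted p = 0.821). The call against sham in norUDCA-prefed CBDL ended without sham_158, sham_160, norUDCA_CBDL_172 or norUDCA_CBDL_175 (highest adjusted p 0.112).

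Ifi30, a lysosomal thiol reductase that unfolds antigens for MHC class II, was at 10.39, 10.38 and 10.38 in norUDCA-prefed CBDL, 10.84, 10.75 and 10.55 in CBDL, and 10.27, 10.001 and 10.30 in sham. The groups were separate, and it rose by 0.52 in CBDL (SE 0.12, adjusted p = 0.00916). Bst2, which tethers budding viruses to the cell surface, was at 6.20, 6.31 and 5.95 in norUDCA-prefed CBDL, 6.43, 6.45 and 6.28 in CBDL, and 6.02, 6.20 and 5.69 in sham (difference of CBDL to sham 0.42, adjusted p = 0.0715).

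The oligoadenylate synthetases make the messenger that activates RNase L against viral RNA, and Oasl1 and Oasl2 are their relatives. Of 11 measured genes, all on chromosome 5, 2 rose in CBDL against sham. Oasl2 was at 7.21 on all 3 arrays in norUDCA-prefed CBDL, at 8.15, 7.33 and 7.71 in CBDL, and at 6.92, 7.44 and 6.65 in sham. CBDL_165 lay below sham_159, so CBDL and sham overlapped, and the rise of 0.73 (SE 0.23, adjusted p = 0.0457) ended without any 1 of 7 arrays (highest adjusted p 0.149). Oasl1, which in mouse restrains translation of Irf7, was at 6.03 on all 3 arrays in norUDCA-prefed CBDL, at 6.23, 6.03 and 6.30 in CBDL, and at 5.81, 5.83 and 5.95 in sham. Its rise of 0.32 (SE 0.10, adjusted p = 0.044) ended without any 1 of 8 arrays (highest 0.129). The other 9 genes, Oas1b to Oas1h, Oas2 and Oas3, differed by -0.20 to 0.32 in CBDL against sham, and 4 of the family lay under the dim level in all groups. Values were equal on all 3 norUDCA-prefed arrays for 375 of 22180 genes, Oasl1 and Oasl2 among them. All 3 values were equal for 204 genes on CBDL arrays and 156 on sham arrays. On the norUDCA-prefed arrays 582 genes spanned less than 0.01, against 322 on CBDL arrays and 261 on sham arrays. The Oasl1 value recurred on CBDL_165. A group SD of 0 enters the shared spread behind the SE and p-values of such genes, and the origin of the equal values was not tested.

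Of Isg15, Usp18, Mx1 and Mx2, 0 were called and 0 had an unadjusted p under 0.05 in limma's fit in any of the 3 comparisons. Isg15, a ubiquitin-like modifier with 3 ISRE cores in its promoter, was at 4.97, 4.85 and 5.08 in norUDCA-prefed CBDL, 5.30, 4.76 and 5.18 in CBDL, and 5.01, 5.26 and 4.67 in sham. The groups overlapped (difference of CBDL to sham 0.10, SE 0.18, adjusted p = 0.73), and all 3 means lay under the dim level. Usp18, the protease that removes ISG15 from proteins, was at 6.54, 6.49 and 6.64 in norUDCA-prefed CBDL, 6.58, 6.51 and 6.67 in CBDL, and 6.72, 7.07 and 6.49 in sham (difference of CBDL to sham -0.18, SE 0.14, adjusted p = 0.417). The antiviral GTPase Mx1 was at 3.996, 4.24 and 4.06 in norUDCA-prefed CBDL, 3.81, 4.04 and 4.09 in CBDL, and 4.04, 4.47 and 3.97 in sham, under the dim level on each array (difference of CBDL to sham -0.18, adjusted p = 0.437).

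The Ifit proteins bind viral RNA that lacks the host's cap methylation. By limma 0 of their 6 genes, all on chromosome 19, passed in any comparison. An unadjusted p under 0.05 was reached by 1 in CBDL against sham and by 1, Ifit3b, in norUDCA-prefed CBDL against sham. Ifit1 was at 6.10, 6.13 and 6.13 in norUDCA-prefed CBDL, 6.30, 5.23 and 6.35 in CBDL, and 6.13, 6.26 and 5.73 in sham. CBDL_165 was the lowest of the 9 arrays and the other CBDL arrays the highest, for a difference of CBDL to sham of -0.08 (SE 0.27, adjusted p = 0.875) that was 0.29 without CBDL_165. Ifit3 was at 7.12, 6.25 and 6.85 in norUDCA-prefed CBDL, 6.98, 7.33 and 6.51 in CBDL, and 6.95, 6.71 and 6.22 in sham, with overlap throughout (difference of CBDL to sham 0.31, SE 0.27, adjusted p = 0.473). Ifit2 was at 6.49, 6.59 and 6.72 in norUDCA-prefed CBDL, 6.90, 6.76 and 6.74 in CBDL, and 6.27, 6.74 and 5.98 in sham, where CBDL and sham overlapped through sham_159. Its difference of CBDL to sham was 0.47 (SE 0.17, adjusted p = 0.0809), and it was called with array weights, without sham_159 and without both arrays that stand apart. The dim Ifit1bl1 differed by -0.53 (SE 0.34, adjusted p = 0.323). Standard errors in this family ran to 0.40, and differences well above that could go uncalled. The dim Ifit3b differed by -0.95 in norUDCA-prefed CBDL against sham without overlap of the arrays (SE 0.40, adjusted p = 0.275).

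Rsad2 encodes viperin, an enzyme that makes a chain-terminating nucleotide against viral polymerases, and it was the member that fell in CBDL. It was at 8.12, 8.16 and 7.94 in norUDCA-prefed CBDL, 7.41, 6.69 and 7.67 in CBDL, and 8.35, 8.27 and 8.09 in sham. All CBDL arrays lay below the others, and the norUDCA-prefed and sham arrays overlapped. It fell by 0.98 in CBDL against sham (SE 0.21, adjusted p = 0.00879), a call kept without each single array in turn (highest adjusted p 0.0339). The difference of 0.82 in norUDCA-prefed CBDL against CBDL narrowly missed the threshold (SE 0.21, adjusted p = 0.0506) and was 0.54 without CBDL_165 (adjusted p = 0.068). Cmpk2, its neighbour on chromosome 12 in the RefSeq gene table and a mitochondrial nucleotide kinase also induced by interferon, was at 7.15, 7.55 and 7.47 in norUDCA-prefed CBDL, 7.29, 6.78 and 7.43 in CBDL, and 7.90, 8.04 and 7.86 in sham. Cmpk2 fell by 0.77 in CBDL (SE 0.17, adjusted p = 0.00996) and differed by 0.22 in norUDCA-prefed CBDL against CBDL (adjusted p = 0.576), so that both ligated groups lay below sham. The proximal tubule markers, all 14 lower in CBDL than in sham and all 14 higher in norUDCA-prefed CBDL than in CBDL (11 of them called), were lowest on CBDL_165 like Rsad2 and Cmpk2, and their part in these differences was not tested.

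**Figure D5:**
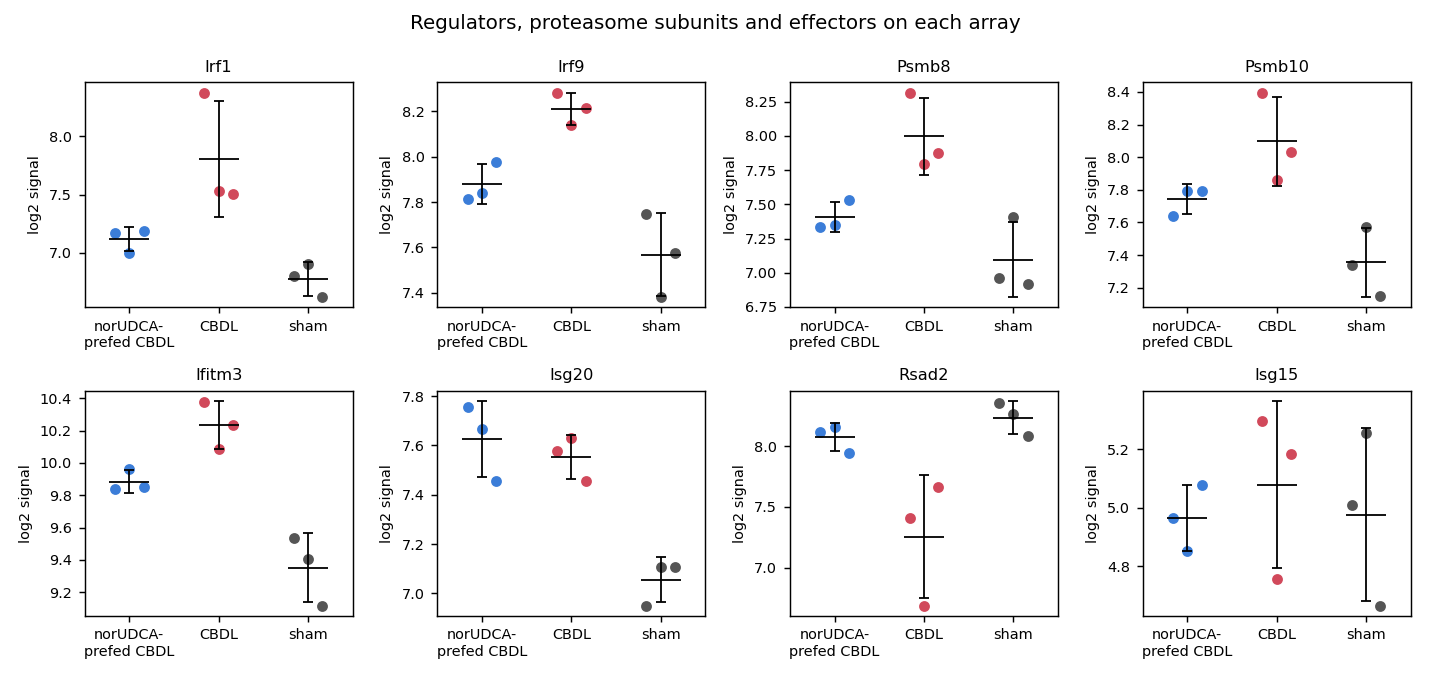
Log2 signal of 8 members, with 1 point per array, the group mean as a line and the SD as bars (n = 3), each panel on its own axis. Irf1, Irf9, Psmb8, Psmb10 and Ifitm3 are highest in CBDL, Isg20 is above sham in both ligated groups, Rsad2 is lowest in CBDL with 6.69 to 7.67, and the groups overlap for Isg15.

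Both promoter elements occurred among members that rose and members that did not pass. An ISRE core was present in 5 of the 15 members with a promoter that rose in CBDL (33.3%) and in 21 of the 37 that did not pass (56.8%), and Rsad2, which fell, has one. A GAS form was present in 6 of 15 (40%) and in 9 of 37 (24.3%). By family the ISRE core was present in 5 of 6 Ifit genes, 5 of 7 p200 genes, all 4 Gbp genes with a promoter and all 3 IRG genes with one, and in 0 of 4 immunoproteasome and TAP genes. These shares are descriptions and were not tested.

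The remaining genes of the pathway were followed in lists of ligands, receptors, sensors and targets. Of 19 interferon ligands, 12 lay under the dim level in all groups, Ifng and Ifnb1 among them. Ifng was at 4.28, 4.24 and 4.58 in norUDCA-prefed CBDL, 4.47, 4.44 and 4.59 in CBDL, and 4.67, 5.34 and 4.93 in sham (difference of CBDL to sham -0.48, adjusted p = 0.0676). Ifnb1 differed by -0.16 (adjusted p = 0.582), and the ligands that rose in CBDL were Ifna4, at 0.60 (SE 0.12, adjusted p = 0.00613), and the dim Ifnab, at 0.39 (adjusted p = 0.0209). The Ifna genes are close copies, and whether the Ifna4 probes read a relative was not tested.

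Of 11 receptors, kinases and STATs, 7 rose in CBDL against sham and 2 of them, both chains of the interferon gamma receptor, fell in norUDCA-prefed CBDL against CBDL. Ifngr1 was at 10.13, 9.82 and 10.0004 in norUDCA-prefed CBDL, 10.33, 10.87 and 10.42 in CBDL, and 9.22, 9.24 and 9.19 in sham, in 3 separate groups. It rose by 1.32 in CBDL (SE 0.14, adjusted p = 0.0002) and fell by 0.56 in norUDCA-prefed CBDL against CBDL (adjusted p = 0.0496). Ifngr2 rose by 0.88 (adjusted p = 0.00168) and fell by 0.57 (adjusted p = 0.0423) in the same comparisons. Stat3, which many cytokines beside interferons activate, rose by 1.09 (SE 0.10, adjusted p = 9.98e-05), and the type I receptor gene Ifnar1 rose by 0.68 (adjusted p = 0.00254). Stat2 differed by 0.44 (adjusted p = 0.106).

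Of 16 genes of nucleic acid sensing, 8 rose in CBDL against sham and 4 of these fell in norUDCA-prefed CBDL against CBDL. Sting1, the adaptor for DNA in the cytosol, was at 7.84, 7.62 and 7.89 in norUDCA-prefed CBDL, 8.94, 8.86 and 8.80 in CBDL, and 6.78, 7.26 and 6.28 in sham. The groups were separate, with a rise of 2.09 in CBDL (SE 0.21, adjusted p = 0.000116) and a difference of -1.09 in norUDCA-prefed CBDL against CBDL (SE 0.21, adjusted p = 0.016). Tlr13, a sensor of bacterial ribosomal RNA in mouse, rose by 2.61 (SE 0.18, adjusted p = 2.98e-05), and Aim2, an inflammasome sensor related to the p200 family, rose by 0.76 (adjusted p = 0.00286) and fell by 0.57 in norUDCA-prefed CBDL against CBDL (adjusted p = 0.0347).

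Of 11 feedback inhibitors, 2 rose in CBDL and 1 fell. Socs3, an inhibitor of JAK kinases, rose by 1.71 in CBDL (SE 0.17, adjusted p = 0.000121) and fell by 0.97 in norUDCA-prefed CBDL against CBDL (adjusted p = 0.013). Of 35 other interferon-induced genes outside the 72, 11 rose in CBDL and 4 fell, and 9 fell in norUDCA-prefed CBDL against CBDL. Epsti1 was at 6.73, 6.73 and 6.79 in norUDCA-prefed CBDL, 7.64, 7.71 and 7.32 in CBDL, and 5.84, 5.90 and 6.05 in sham, and rose by 1.63 (SE 0.12, adjusted p = 3.45e-05). The genes that fell in CBDL beside Cmpk2 were Samd9l at -0.66, Apol9b at -0.82 and Trim25 at -0.54. Cxcl10, a chemokine that interferon gamma induces and that draws T cells, was at 6.49, 6.52 and 6.34 in norUDCA-prefed CBDL, 7.83, 5.36 and 7.27 in CBDL, and 6.52 on all 3 sham arrays. CBDL_165 was the lowest array and CBDL_164 the highest, and the difference of CBDL to sham was 0.30 (SE 0.49, adjusted p = 0.709).

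Members varied more among replicates than genes in general. The median SD over members was 0.14 in norUDCA-prefed CBDL, 0.23 in CBDL and 0.25 in sham, against 0.12, 0.15 and 0.15 over all genes in the same groups. In sham, 14 members were highest of all 9 arrays on sham_159 (19.4%), against 32.1% of all genes.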

How the data were processed

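Total RNA of 9 kidney samples was measured on whole-transcript arrays, 1 array per sample. The value table as deposited gives a log2 signal for each transcript cluster, computed by the authors with RMA in Partek 6.6, per the submitters' processing notes. The array's genome build was not given in the sources used here. RMA normalizes the probe signals of all arrays to each other, so differences are relative to all transcripts, and differences of dim genes are compressed. The deposited values are close to 1 distribution but not on it, with array medians from 5.70 to 5.79. The number of arrays limits the precision (median SE of a difference 0.136).

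Of 41345 rows, 23521 carried 1 gene symbol in the platform annotation, 1814 several and 16010 none. Rows with 1 symbol were used, taking the brightest row of a gene. Differences were fitted with limma 3.58.1 in R 4.3.3 on all 9 arrays, with 1 mean per group and 6 residual degrees of freedom, after a check on simulated data. Members named with values are those called in any comparison, a list of well-known members and, for a role with none, the member with the largest difference in CBDL against sham. Others, such as Gbp5 and Ifit2, were picked with their values in view. The members and lists were chosen with earlier results of these data known. Alternatives were an intensity trend, unmoderated variances, 6 arrays only, array weights, no dim genes, quantile normalization, averaged rows and leaving out each array. Promoters and chromosomes came from RefSeq tables of GRCm38.p6, and protein identity within families was not computed here.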

Additional observations from a re-analysis of the deposited data

How the results depend on the processing

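Of 1333 differences of named members under alternatives, 19 changed sign, 0 of them with a call under either setting. Without single arrays, Ifit1 ran from -0.27 to 0.29 and Isg15 from -0.0529 to 0.26 in CBDL against sham; Ifit1 from -0.21 to 0.35, Ifit3 from -0.42 to 0.0444 and Usp18 from -0.0700 to 0.0108 in norUDCA-prefed CBDL against CBDL; and Gbp9 from -0.0829 to 0.17 and Ifi204 from -0.0463 to 0.25 in norUDCA-prefed CBDL against sham. In CBDL against sham Ifit1 was 0.14 with array weights and 0.40 without both arrays that stand apart, where Usp18 was 0.0136. In norUDCA-prefed CBDL against CBDL Ifit1 was -0.0364 with array weights and -0.21 without both arrays, and Usp18 was 0.00965 with quantile normalization.

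Array weights were lowest for sham_159 (0.336) and CBDL_165 (0.445). With array weights 32 members rose in CBDL against sham, where 11.7% of all genes rose, and 2 members fell. In the same setting 1 rose and 17 fell in norUDCA-prefed CBDL against CBDL, and 2 rose in norUDCA-prefed CBDL against sham. The 4 decreases in norUDCA-prefed CBDL against CBDL became 0 with variances that are not moderated, 2 with only 6 arrays, 7 without both arrays that stand apart (a setting chosen after seeing the data) and 1 to 6 without single arrays. Rsad2 was the 1 increase in that comparison with a trend, array weights or no dim genes, and 0 to 1 rose without single arrays. In CBDL against sham, 14 to 26 rose and 1 to 3 fell without single arrays. In norUDCA-prefed CBDL against sham, 0 rose with variances that are not moderated, 2 with a trend, no dim genes, quantile normalization or without both arrays, and 0 to 2 without single arrays. The 18 increases in CBDL against sham became 14 with only 6 arrays or quantile normalization, without Gbp8, Gbp9, Oasl1 and Oasl2. They became 13 with variances that are not moderated, without Gbp8, Gbp9, Oasl2, Ifi205 (adjusted p = 0.0536) and Ifitm10 (0.0571). Of all genes, 10.3% rose in the fit used above, 8.1% with only 6 arrays, 11.4% with quantile normalization and 8.22% with unmoderated variances. Other shares over all genes are not given for these settings, so the counts are not read as particular to the members. Oasl1 also lost its call with a trend, and Gbp8 and Ifi30 (0.0519) without both arrays that stand apart, where the difference of Oasl2 was 1.14. Ifi202b and Ifi204 were not tested without dim genes. The cause of these changes was not tested.

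No paired analysis was possible because the groups share no replicate numbers. With 3 arrays a group and no detection calls, the 23 dim members and the smallest differences are the least certain.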
